A study of Mus musculus with 40 samples.

Results

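The Lingo and Nogo receptor family was followed in RNA sequencing of the mouse cortex after high-frequency head impact (HF-HI), a daily series of head impacts delivered under isoflurane. The family was listed as 8 gene symbols, Lingo1, Lingo2, Lingo3, Rtn4, Rtn4r, Rtn4rl1, Rtn4rl2 and Omg, and its members were all rows of the deposited table that carry these symbols. The table held 6831 RefSeq transcripts of 5863 symbols, of which 8 transcripts of 6 symbols were members. Rtn4r and Rtn4rl2 had no row in the table and were not analysed here. The family was chosen by a measured value, the lower level of Lingo3 in saline HF-HI than in saline sham, so values of that comparison are given as a description, with no test, for all 8 rows.

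The 40 libraries came from the cortex of male C57BL/6 mice aged 12 weeks. There were 4 groups with 10 libraries each, defined by drug and procedure: saline with sham, saline with HF-HI, memantine with sham, and memantine with HF-HI. The drug memantine, which blocks NMDA receptors for glutamate, or its saline vehicle was injected into the abdomen 1 h before each session, and tissue was taken 24 h after injury. Every mouse, shams included, was an intact animal that was injected, handled and anaesthetised, so no group was free of injection or anaesthesia. The labels name no batch and list 1 library per sample, and p-values measure the spread between these libraries.

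Nogo, the product of Rtn4, and the oligodendrocyte-myelin glycoprotein, the product of Omg, are membrane proteins that bind the Nogo receptor on neurons. The receptor lacks a part inside the cell and signals through a co-receptor complex that includes Lingo1. The pathway is known for limiting axon growth and synaptic plasticity in the adult brain, and Lingo1 also restrains oligodendrocyte maturation. Lingo2, Lingo3 and Rtn4rl1 are relatives of Lingo1 and of the Nogo receptor by sequence, and their own roles are less well defined.

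Some member rows were alternative transcripts of the same gene, and this governed what could be read from them. Rtn4 (chromosome 11, plus strand, mm10) was represented by NM_194054, with 9 exons from 29692947 to 29742916 and a protein of 1162 residues, which is the length of Nogo-A, and by NM_024226, with 7 exons from 29718563 to 29742916 and a protein of 199 residues, which is the short Nogo-C. The gene models share 1453 bases, which are 82.0% of NM_024226 and 31.5% of NM_194054, and reads from those bases had to be divided between the rows by the quantification. Lingo1 (chromosome 9, minus strand) was represented by NM_001311076, from 56619088 to 56635628, and NM_181074, from 56618475 to 56685253, which share 2228 bases, or 80.1% and 67.6% of their lengths. Their proteins of 620 and 614 residues differ little in length. Lingo3 (chromosome 10, 80832801 to 80844039, minus strand, 2 exons), Lingo2 (chromosome 4, 35707406 to 36951223, minus strand, 8 exons), Rtn4rl1 (chromosome 11, 75193783 to 75267769, plus strand, 2 exons) and Omg (chromosome 11, 79500982 to 79504084, minus strand, 2 exons) had a single row each. Omg lies within Nf1, which is on the opposite strand, and whether strand was used in the counting was not stated.

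The start sites are shown for Lingo3, whose values led to the choice of the family, and for both Rtn4 rows, which begin at different places and moved in opposite directions between libraries. Each sequence is the 250 bases before a RefSeq start site (GRCm38.p6), written 5′ to 3′ on the strand of the gene. The transcript positions given above are those of GENCODE models, and the RefSeq start of Rtn4 NM_194054, at 29692898, lies 49 bases upstream of the GENCODE one, whereas the starts of the others shown are the same in both. Capitals mark matches on either strand to CCAAT or GGGCGG, and TATAAA and TGACG were also searched.
Lingo3, chr10:80844040-80844289, minus strand: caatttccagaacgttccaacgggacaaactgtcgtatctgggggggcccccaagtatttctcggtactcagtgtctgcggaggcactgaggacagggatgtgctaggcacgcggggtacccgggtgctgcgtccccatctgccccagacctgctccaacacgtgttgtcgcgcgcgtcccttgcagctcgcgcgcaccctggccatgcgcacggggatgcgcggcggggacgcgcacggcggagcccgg
Rtn4 NM_194054, chr11:29692648-29692897, plus strand: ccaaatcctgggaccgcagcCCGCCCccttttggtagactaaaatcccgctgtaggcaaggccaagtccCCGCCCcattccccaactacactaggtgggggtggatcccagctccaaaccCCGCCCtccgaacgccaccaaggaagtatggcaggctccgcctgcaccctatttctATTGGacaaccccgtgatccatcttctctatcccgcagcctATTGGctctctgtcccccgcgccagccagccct
Rtn4 NM_024226, chr11:29718313-29718562, plus strand: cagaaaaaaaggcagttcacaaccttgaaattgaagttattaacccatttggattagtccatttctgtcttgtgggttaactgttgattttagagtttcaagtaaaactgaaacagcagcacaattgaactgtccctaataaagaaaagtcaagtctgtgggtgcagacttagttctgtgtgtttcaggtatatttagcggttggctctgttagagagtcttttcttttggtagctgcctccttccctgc
The sequence before Lingo3 had a GC content of 66.8% and 27 CpG dinucleotides and none of the 4 motifs. The sequence before the long Rtn4 transcript had 61.2% GC, 12 CpG, 2 CCAAT and 3 GGGCGG matches, whereas that before the short transcript, which lies in the body of the long one, had 39.2% GC, 1 CpG and none of the motifs. Among 32851 windows of the same length in the RefSeq set, the median was 6 CpG and 52.4% GC, and 33.8% held CCAAT, 32.7% GGGCGG, 17.8% TGACG and 12.4% TATAAA. These matches are a description of the sequence.

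Levels can be compared between genes only per length, and normalised counts per kilobase of transcript are used for that. Over the 40 libraries, the Rtn4 rows were the highest members, at 2697 ± 1147 per kilobase for NM_024226 and 1853 ± 446 for NM_194054 (SD, n = 40). Lingo1, with its rows added per kilobase, followed at 728 ± 111, and Omg at 671 ± 36.2, and their ranges over libraries overlapped. Rtn4rl1 stood at 295 ± 22.2, Lingo2 at 208 ± 38.3 and Lingo3 at 171 ± 26.1 per kilobase, and the ranges of Lingo2 and Lingo3 also overlapped, as did those of Lingo2 and Rtn4rl1. The labelled tissue was checked with 13 markers of cortical projection neurons, of which 11 were in the table. Slc17a7, the vesicular glutamate transporter of cortical excitatory neurons, ran from 8067 to 12608 normalised counts over the libraries, while Fezf2 and Foxp2 had no row and Cux2 had a count of 0 in its lowest library.

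Lingo3 was the lowest member per length in its mean, and its level in the saline groups is what the family was selected on. In saline sham its normalised read count was 661.5 ± 67.0 (SD, n = 10), with a lowest value of 550.4, a median of 672.1 and a highest value of 777.3. In saline HF-HI it was 518.0 ± 76.5, with a lowest value of 409.5, a median of 512.3 and a highest value of 643.8. All 10 saline HF-HI libraries lay below the mean of saline sham and 6 lay below every saline sham library, so the groups overlapped in the others. The difference was -0.11 ± 0.03 (SE) on the deposited log2 scale, which compresses changes at such counts, and the ratio of the mean counts was 0.783. Across the table, 9.53% of transcripts (4.58% higher and 4.95% lower) had an unadjusted p under 0.05 in this comparison, and nothing is read from the place of the members among them, since the difference in Lingo3 chose the family.

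The comparison under memantine shares no library with the one that chose Lingo3, and it asked whether impact changed the members in drug-treated mice. Lingo3 was 604.1 ± 99.2 in memantine sham (lowest 479.8, median 595.2, highest 783.8) and 564.3 ± 48.0 in memantine HF-HI (lowest 444.5, median 574.0, highest 615.5; n = 10 each). The memantine HF-HI libraries were the more tightly grouped, and 8 of the 10 lay below the mean of memantine sham, but only 1 lay below all of them. The difference of -0.03 ± 0.03 on the deposited scale did not pass the test (limma, p = 0.277, adjusted p = 0.967, and permutation test, p = 0.304, both two-sided). The ratio was 0.942 with a 95% interval of 0.838 to 1.06. The difference between the impact effects of both drug arms was 0.08 ± 0.04 on the deposited scale, and it has no test here because the saline arm chose the gene.

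Set against saline, memantine HF-HI was 0.04 higher and memantine sham 0.04 lower in Lingo3 on the deposited scale, with an SE of 0.03 each. Both differences use the saline libraries that chose the gene and are a description. In the plot of the members by library, Lingo3 in both memantine groups sits between the saline groups in its mean.

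**Figure D1:**
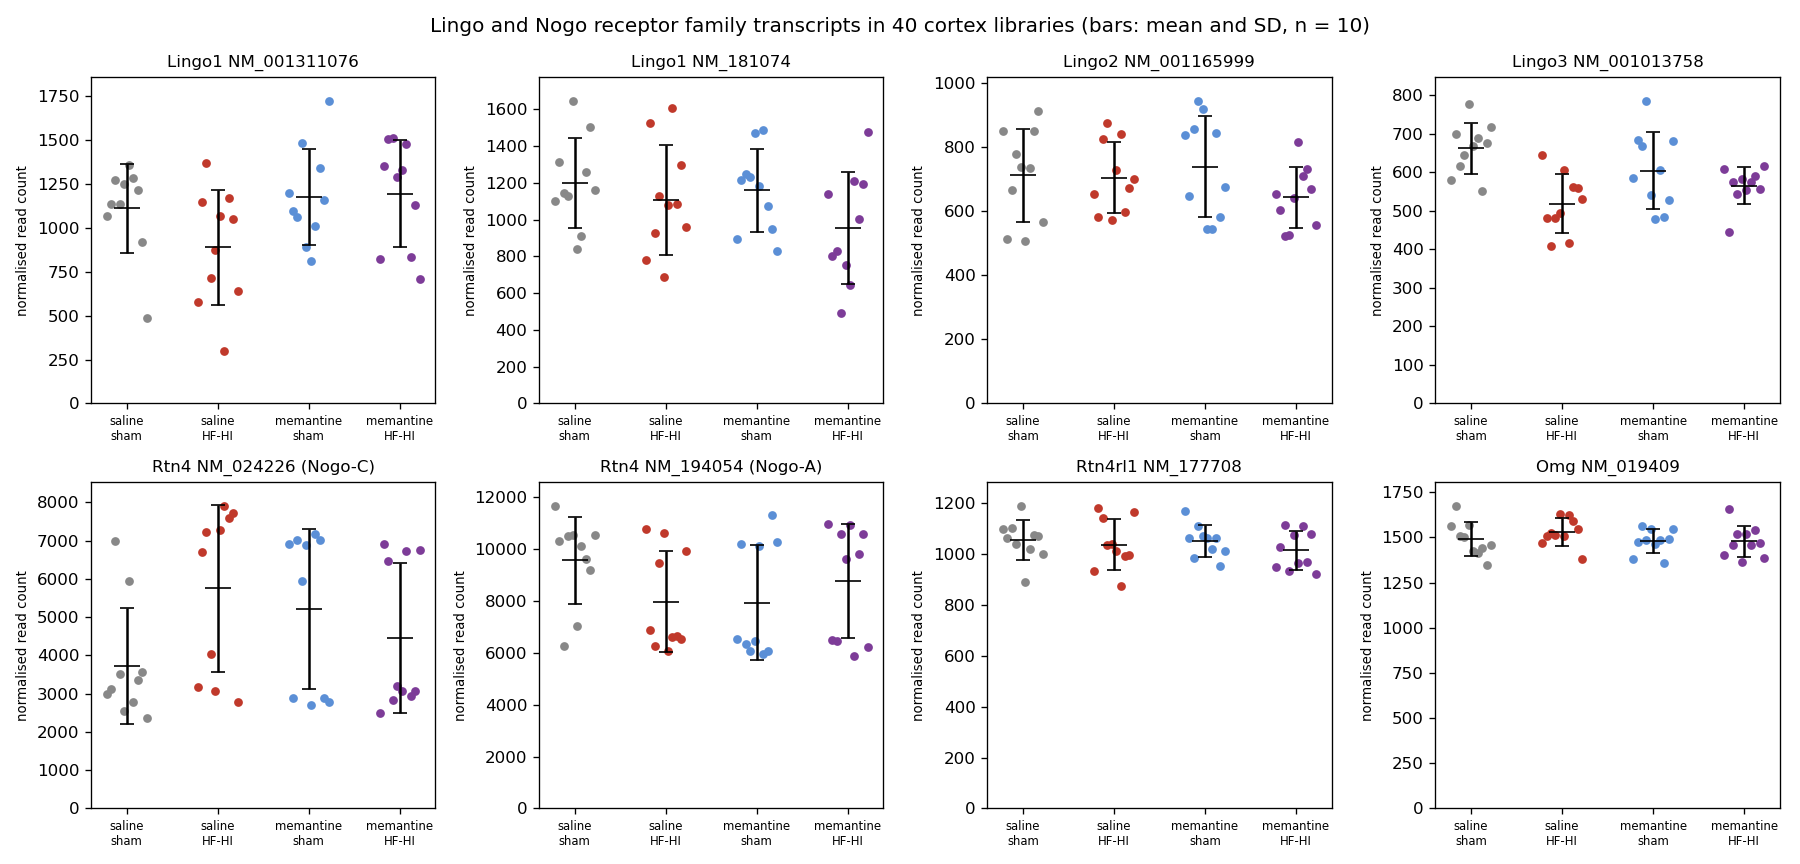
Normalised read counts (y axes, from 0) of the 8 member transcripts in the 2 saline groups and the 2 memantine groups (sham first). Points are libraries, and black bars give the mean and SD (n = 10); Lingo3 is lowest in saline HF-HI, the Rtn4 rows fall into a high and a low set within each group, and Rtn4rl1 and Omg stay within a narrow range.

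The transcripts whose levels ran most closely with Lingo3 from library to library included striatal markers. After the mean of each group was subtracted, the highest correlations over the 40 libraries were with Ankrd63 (Pearson r = 0.755), Adcy5 (0.753), an adenylyl cyclase of striatal neurons, and Ppp1r1b (0.744), which encodes the striatal phosphoprotein DARPP-32. All transcripts of a library share its depth and its dissection, which can differ from library to library, and these correlations are a description. Like Lingo3, all 3 had their lowest group mean in saline HF-HI. Ppp1r1b stood at 3421 ± 517 normalised counts (sham) and 2863 ± 255 (HF-HI) under saline, and 3406 ± 550 (sham) and 3296 ± 435 (HF-HI) under memantine (SD, n = 10 each).

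The list of striatal markers had its saline calls in the direction of Lingo3. Of its 27 symbols, 17 were in the table with 23 transcripts, and between the saline groups 11 of these transcripts passed an unadjusted p under 0.05 as lower and 0 as higher (limma), against 4.95% of all transcripts lower, with a median difference of -0.11 on the deposited scale where the median of all transcripts was 0. None had an adjusted p under 0.1, which 0.205% of all transcripts had. These saline calls are a description. The mean of the markers ran with Lingo3, whose difference in the same libraries chose the family, and the markers are not independent of each other. Under memantine, impact gave 0 calls among the 23 in either direction, where 4.61% of all transcripts were called, and a median of -0.04. Between the HF-HI groups 2 were higher with memantine and 0 lower, where 3.91% of all transcripts were called. That comparison uses the same saline HF-HI libraries and is a description as well. Their summed counts ran from 43029 to 68479 in saline sham (median 60566), from 44550 to 59358 after impact (median 51251), and under memantine from 46651 to 71059 in shams (median 60040) and from 40831 to 62647 after impact (median 57342). The mean of these markers had an r of 0.718 with Lingo3 within groups and between -0.189 and 0.049 with each other member row. With that mean as a covariate, the saline difference of Lingo3 went from -0.11 to -0.06 ± 0.02 and the memantine difference from -0.03 to -0.01 ± 0.02. The part of the striatal signal in the Lingo3 difference was not tested beyond these values, and in bulk tissue fewer cells of a type and less RNA per cell cannot be told apart.

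**Figure D2:**
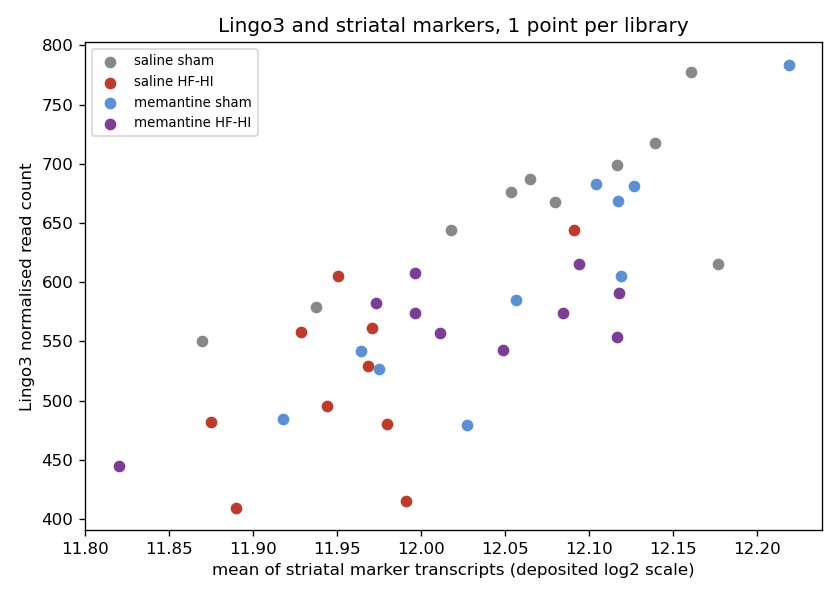
Lingo3 normalised read count (y axis, which does not start at 0) against the mean of 23 striatal marker transcripts on the deposited log2 scale (x axis), with 1 point for each of the 40 libraries, coloured by group. Lingo3 rises with the marker mean in the libraries, and the memantine HF-HI library lowest in Lingo3, at 444.5, is also the lowest of all in the marker mean, at 11.82.

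Lingo1, the co-receptor itself, had rows that varied widely between libraries. Its row NM_001311076 was 1112 ± 253 normalised counts in saline sham (lowest 484.5, median 1176, highest 1359) and 889.5 ± 328.2 in saline HF-HI (lowest 297.5, median 959.3, highest 1367). In memantine sham it was 1176 ± 274 (lowest 810.0, median 1128, highest 1720), and in memantine HF-HI 1195 ± 305 (lowest 708.6, median 1308, highest 1509). All 4 groups overlapped. Counting error accounts for a coefficient of variation of about 3% at these counts (2.999% in saline sham), against 22.8% measured in saline sham and 36.9% in saline HF-HI.

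This row was higher in memantine HF-HI than in saline HF-HI, by 0.18 ± 0.08 on the deposited scale (limma, p = 0.0217, adjusted p = 0.9995), with a count ratio of 1.41 (95% interval 1.05 to 1.88). The memantine HF-HI libraries lay above the saline HF-HI mean in 7 of 10. It was the only one of the 14 tests of the 7 rows other than Lingo3 in the drug comparisons to pass an unadjusted p under 0.05, where 3.91% of all transcripts passed between the HF-HI groups and 7.51% between the sham groups. Without saline HF-HI replicate 7, which holds the lowest value, the difference was 0.13 (p = 0.069). With the counts of both Lingo1 rows added, the difference was 0.06 (p = 0.209), which did not pass.

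The other row, NM_181074, was 1200 ± 244 (sham) and 1107 ± 298 (HF-HI) under saline, and 1158 ± 224 (sham) and 953.7 ± 303.0 (HF-HI) under memantine. It was the member nearest to passing in the memantine comparison, at -0.12 ± 0.07 on the deposited scale (limma, p = 0.0669, adjusted p = 0.967; permutation test, p = 0.0904), with 5 of 10 memantine HF-HI libraries below every memantine sham library and a count ratio of 0.798 (95% interval 0.635 to 1.00). It passed at p = 0.0495 with voom on recovered reads. It also passed when memantine sham replicate 1 or 10 or memantine HF-HI replicate 7, 9 or 10 was left out, with p from 0.0206 to 0.0448. These are the lowest sham and the highest HF-HI libraries of the row, so leaving them out widens the difference. Over all 20 omissions the difference ran from -0.16 to -0.09.

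The counts of the Lingo1 rows had an r of -0.40 within groups, pooled over the 40 libraries, and NM_001311076 held from 15.6% to 75.5% of the sum. The sum was 2312 ± 316 (sham) and 1997 ± 414 (HF-HI) under saline, and 2335 ± 223 (sham) and 2149 ± 248 (HF-HI) under memantine. It was lower after impact in the means of both drug arms. Under memantine the difference of the sum was -0.07 on the deposited scale and did not pass (limma, p = 0.186; permutation test, p = 0.0886), with a ratio of 0.919 (95% interval 0.806 to 1.05).

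Rtn4, which encodes the ligand Nogo, was split into high and low libraries by transcript while the summed count of its rows, not corrected for length, was steady. NM_024226, the Nogo-C row, held from 18.3% to 54.7% of the Rtn4 counts, and its values left a gap between 4043 and 5939 normalised counts, the next widest gap being 521. Under saline, 8 sham and 4 HF-HI libraries lay below the gap and 2 and 6 above it, and under memantine 4 sham and 6 HF-HI libraries lay below and 6 and 4 above. The row was 3718 ± 1523 in saline sham (lowest 2362, median 3228, highest 6994) and 5748 ± 2177 in saline HF-HI (lowest 2793, median 6969, highest 7894). It was 5215 ± 2094 in memantine sham (lowest 2715, median 6410, highest 7176) and 4448 ± 1962 in memantine HF-HI (lowest 2500, median 3136, highest 6918).

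NM_194054, the Nogo-A row, mirrored it, at 9569 ± 1685 (sham) and 7973 ± 1946 (HF-HI) under saline, and 7932 ± 2221 (sham) and 8754 ± 2195 (HF-HI) under memantine. The counts of the rows had an r of -0.96 within groups over the 40 libraries. Every group held libraries of both sets, and the group means moved with the number in each. Under memantine, impact gave -0.16 ± 0.18 for NM_024226 (limma, p = 0.391; permutation test, p = 0.483) and 0.11 ± 0.12 for NM_194054 (p = 0.351 and 0.428). Between the sham groups the drug differences were 0.31 ± 0.18 for NM_024226 (p = 0.0959) and -0.23 ± 0.12 for NM_194054 (p = 0.0648), and neither passed. Both passed without saline sham replicate 3 (p = 0.0395 and 0.0251), and NM_194054 passed when replicate 6 of saline sham or replicate 2, 6, 9 or 10 of memantine sham was left out (p from 0.0267 to 0.0388). The libraries left out there ran against the difference, so their omission widens it. Over all 20 omissions the difference ran from 0.26 to 0.38 for NM_024226 and from -0.28 to -0.20 for NM_194054. Whether the split lies in the tissue or in how shared reads were assigned was not tested.

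The summed Rtn4 count had a coefficient of variation of 3.47% to 4.51% within groups. It was 13287 ± 599 (sham) and 13720 ± 529 (HF-HI) under saline, and 13147 ± 547 (sham) and 13202 ± 459 (HF-HI) under memantine. Impact under memantine changed the sum by 0.01 on the deposited scale (limma, p = 0.807; permutation test, p = 0.801), with a ratio of 1.00 and a 95% interval of 0.969 to 1.04. Memantine HF-HI was lower than saline HF-HI by 0.05 (limma, p = 0.0384, adjusted p = 0.998 over all genes), a ratio of 0.962 with a 95% interval of 0.928 to 0.998. Of all 5863 gene sums, 207 passed an unadjusted p under 0.05 in that comparison. Gene sums were tested in addition to the 14 tests of rows. Neither row passed by itself in that comparison (p = 0.157 for NM_024226 and 0.408 for NM_194054).

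**Figure D3:**
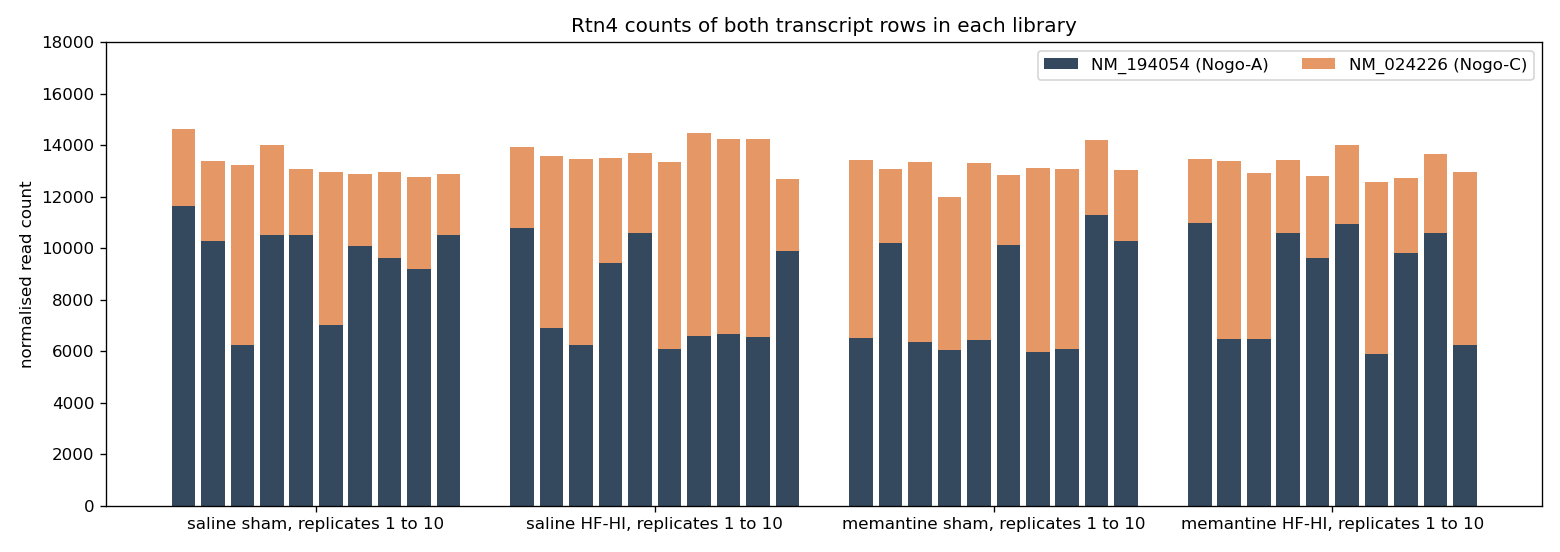
Normalised read counts of Rtn4 in each of the 40 libraries (stacked bars from 0, in replicate order within each group). The dark part is NM_194054 and the light part NM_024226; the light part alternates between a low and a high level, while the bar heights stay between 11992 and 14646.

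Lingo2 had a mean of 710.5 ± 145.1 normalised counts (sham) and 703.7 ± 110.0 (HF-HI) under saline, and 738.3 ± 156.2 (sham) and 642.2 ± 94.2 (HF-HI) under memantine. In memantine HF-HI 9 of 10 libraries lay below the memantine sham mean, but the difference of -0.07 ± 0.04 did not pass (limma, p = 0.113; permutation test, p = 0.129), with a ratio of 0.880 (95% interval 0.746 to 1.04). Its most similar transcripts were those of Agap1 (r = 0.525), Celf4 (0.524) and Rorb (0.508).

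Rtn4rl1 and Omg were the steadiest single-row members. Rtn4rl1, a relative of the Nogo receptor held on the outer face of the cell membrane by a lipid anchor, was 1054 ± 77.4 (sham) and 1036 ± 99.7 (HF-HI) under saline, and 1050 ± 62.2 (sham) and 1014 ± 75.3 (HF-HI) under memantine. Impact under memantine gave a ratio of 0.965 (95% interval 0.900 to 1.03; limma, p = 0.308; permutation test, p = 0.248). Omg was 1490 ± 93.2, 1530 ± 75.0, 1479 ± 67.1 and 1478 ± 85.9 in the same order of groups. Its ratio under memantine was 0.999 (95% interval 0.951 to 1.05; limma, p = 0.963; permutation test, p = 0.965).

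Rtn4rl1 was most similar over the libraries to Kcnj9 (r = 0.825), a potassium channel subunit, Dagla (0.747), which makes an endocannabinoid, and Extl3 (0.729). Omg was most similar to Sel1l (0.561), Kcnv1 (0.555) and Dock3 (0.549). The 24 transcripts of 15 oligodendrocyte and myelin genes had a mean that gave an r of -0.24 with Omg, although the protein is named for that cell type. NM_194054 of Rtn4 was most similar to Sumo2 (0.581), Kctd2 (0.548) and Uqcrc2 (0.548), and NM_181074 of Lingo1 to Plcg1 (0.561), Tmem44 (0.539) and Snrnp200 (0.537). Outside the pairs of rows of the same gene, the correlations between members within groups lay between -0.345 and 0.385.

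Over the family, 0 of 8 rows passed an unadjusted p under 0.05 in memantine HF-HI against memantine sham with limma, where 4.61% of all transcripts passed. With voom 1 of 8 passed. The share of all transcripts that passed with voom is not given here, so nothing is read from that call. The median difference of the members was -0.02 on the deposited scale, and that of all transcripts was 0.00. The intervals ran widest for the rows that share a gene.

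**Figure D4:**
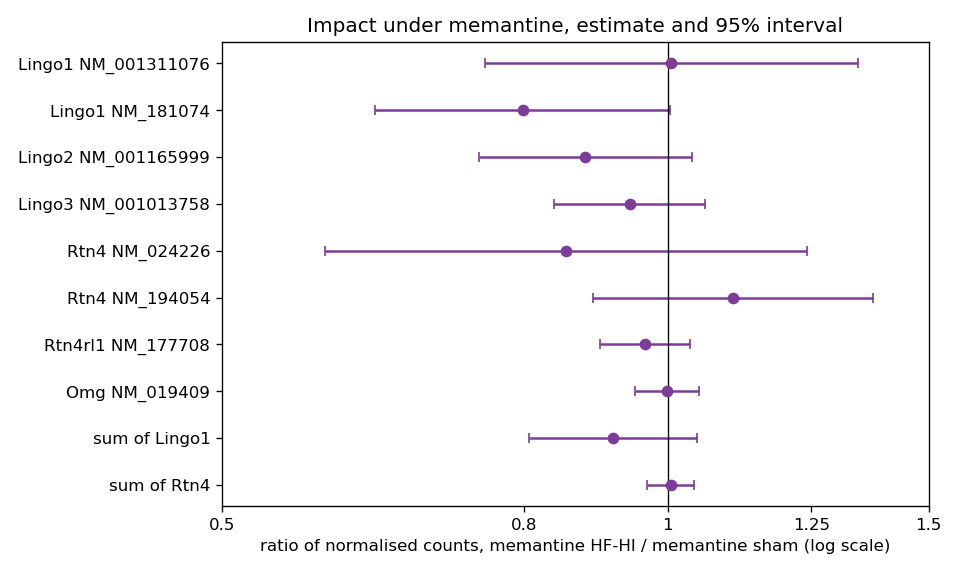
Ratio of normalised counts in memantine HF-HI to memantine sham (x axis, log scale) for the 8 member rows and the sums of Lingo1 and Rtn4. Points are limma estimates and bars are 95% intervals; every interval includes 1, from the narrow ones of the Rtn4 sum (0.969 to 1.04) and Omg to the wide ones of the single Rtn4 and Lingo1 rows.

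The rest of the pathway was read from 4 lists, which were ligands, other receptors, reticulons and Lingo1 partners, with 45 symbols, of which 32 were in the table with 55 transcripts. In memantine HF-HI against memantine sham, 3 were higher and 2 lower at an unadjusted p under 0.05 (limma), which is 9.09% of the transcripts, against 2.39% higher and 2.23% lower among all transcripts, and 0 had an adjusted p under 0.1, against 0.0146% of all. Between the sham groups 5 were called (3 higher, 2 lower), which is 9.09% against 7.51% of all transcripts, and between the saline groups 7 (3 higher, 4 lower), which is 12.7% against 9.53%. Between the HF-HI groups 0 were called, against 3.91% of all. The shares between the sham groups and between the saline groups were near those of the whole table. The median difference of the 55 transcripts was between -0.02 and 0.01 in each comparison.

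Of the 5 transcripts called under memantine, 4 formed opposed pairs of the same gene. NM_008666 of Myt1l, a neuronal transcription factor, rose from 1904 to 2833 normalised counts (0.32 ± 0.10, p = 0.00369, adjusted p = 0.86) as NM_001093776 fell from 3215 to 2289 (-0.30 ± 0.10, p = 0.0059). The summed Myt1l count gave -0.001 ± 0.03 (p = 0.973). In the saline groups the means were 2178.5 (sham) and 2472.3 (HF-HI) for NM_008666, and 2355.7 and 2485.5 for NM_001093776. Memantine sham thus had the highest group mean of NM_001093776 and the lowest of NM_008666. NM_001098225 of Adam22, a receptor for the LGI proteins, rose by 0.14 ± 0.05 (p = 0.0109) while NM_001310440 fell by 0.15 ± 0.07 (p = 0.0297), and the sum gave 0.03 ± 0.02 (p = 0.0988). The remaining call was for a gene with 1 row, Egfr, the receptor for epidermal growth factor, which rose from 559.5 to 614.3 (0.04 ± 0.02, p = 0.0288, adjusted p = 0.967).

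In the other comparisons, the pathway transcripts with the smallest p were Ptprf, a receptor phosphatase, and NM_001185021 of Wnk1, a kinase that regulates ion transport, between the saline groups. Ptprf fell from 1719 to 1559 (-0.07 ± 0.02, p = 0.00681, adjusted p = 0.337), and the Wnk1 row rose from 471.6 to 1320 (0.50 ± 0.19, p = 0.0115, adjusted p = 0.374). With all 4 Wnk1 rows summed the difference was -0.07 ± 0.06 (p = 0.269). Between the sham groups, NM_001093776 of Myt1l (0.28 ± 0.10, p = 0.0109) and NM_001003934 of Rtn3, a reticulon related to Rtn4 (0.10 ± 0.04, p = 0.0237), were higher with memantine, and so was the summed Rtn3 count (0.05 ± 0.02, p = 0.0306, adjusted p = 0.583). That Myt1l call uses the same memantine sham libraries as the call of the row under memantine and is not separate from it. Between the HF-HI groups the smallest p belonged to Tnfrsf19, the co-receptor TROY (0.17 ± 0.09, p = 0.0536), and to NM_001253360 of Kcnma1, a potassium channel (-0.17 ± 0.09, p = 0.0564), and neither passed. Wnk1 was already known to differ when these lists were drawn up, and its call is not independent support.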

How the data were processed

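Cortical RNA of 40 mice was depleted of ribosomal RNA and sequenced by the authors with a stranded kit. The methods of the study name STAR, eXpress and DESeq2, whereas the submitters' processing notes name HISAT2, StringTie and build mm10; which steps made the table cannot be told apart. The deposited values are variance-stabilised log2 values made by the authors. Here they were inverted with their floor of 10.36, the value of a 0 count, to normalised counts; in every library 100% of values under 5000 (92.4% of all values) were whole multiples of a single step within 0.1 step. Size factors ran from 0.859 to 1.141 and recovered totals from 13322404 to 17529644 reads. At the lowest mean count of the table, 549.2, counting error alone amounts to 4.27% of the count. A log2 unit of count equals 0.295 deposited units at a count of 500, 0.400 at 1000 and 0.810 at 10000. The 180 pairs of libraries within groups differed by at least 44.2 times sampling noise (mean chi-square per transcript), so no library was counted as a repeat.

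Groups came from the labels, which give 10 libraries each; the design text gives fewer. Symbols came from RefSeq and, for 18 rows, GENCODE, and 99.8% of rows had one. limma 3.58.1 in R 4.3.3 (a trend in the variance prior, 1 term per group, 5 contrasts, all 40 libraries) was run two-sided on the deposited values of all 6831 transcripts, with an unadjusted p under 0.05, the criterion of the study, and a Benjamini-Hochberg adjusted p under 0.1 over all transcripts. Ratios and intervals are from limma on log2 of the count plus 1, and gene sums were transformed again with the same function. Permutation tests used 100000 resamples. The procedure was tested on simulated data with independent normal noise for each transcript and library. That setting holds no rows split into high and low libraries, such as those of Rtn4, so it does not cover them. Named were all member rows, the 3 transcripts most correlated with the most abundant row of each member gene, the pathway transcripts called under memantine and the 2 of smallest p in each other comparison. Alternatives were the fit without the trend, log2 counts, voom on recovered reads, quantile and median scaling, a filter at a mean count of 1000, gene sums, the replicate number as a block, the striatal mean as a covariate, only the groups compared, and each library left out. The members and lists were chosen with earlier results of these data known. One further pathway list is not reported here.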

Additional observations from a re-analysis of the deposited data

Results flagged for a closer look

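Lingo3 in memantine HF-HI had a lowest library, replicate 2, that stood apart from the other 9, with a gap to its neighbour of 0.577 of the range of the group, above the 95% critical value of Dixon's test for 10 values. Its count was 444.5 where the group median was 574.0, and it was also lowest in the mean of the striatal markers. Lingo1 NM_001311076 in saline sham had a lowest library, replicate 10, with a gap of 0.5 of the range, at 484.5 where the median was 1176. Chance flags about 1 in 20 groups in this way. The screen covered the 8 member rows and the sums of Lingo1 and Rtn4, each in 4 groups, so some flags are expected by chance.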

How the results depend on the processing

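Counts of called transcripts over the whole table changed by over 1.5 times with the filter at a mean count of 1000, which tests fewer transcripts: 425 in saline HF-HI against saline sham, 178 in memantine HF-HI against memantine sham, 155 between the HF-HI groups, 332 between the sham groups and 138 in the interaction, against 651, 315, 267, 513 and 255. With the striatal mean as a covariate the saline count was 376. Leaving out each library in turn gave 540 to 777, 253 to 525 (525 without memantine sham replicate 9), 215 to 326, 415 to 696 and 208 to 365. The members called under memantine numbered 1 with voom and 0 to 1 with a library left out, and in the drug comparisons 0 to 3; the libraries are named with the values above, and the cause was not tested.

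Directions turned for small differences. Omg under memantine was 0.001 with voom, 0.0021 with quantile and 0.0026 with median scaling, and ran from -0.0095 to 0.005 with a library left out. Lingo1 NM_001311076 under memantine was -0.0066 with the striatal covariate, and from -0.0164 to 0.0375 with a library left out; between the sham groups it ran from -0.0091 to 0.0593, NM_181074 from -0.0437 to 0.0025, Rtn4rl1 from -0.0125 to 0.0061 and Omg from -0.0119 to 0.0045. The gene sums, which differed in sign from some of their rows, were as follows: Lingo1 gave -0.0663 under memantine, 0.0629 between the HF-HI groups and 0.0102 between the sham groups, and Rtn4 0.0054, -0.0469 and -0.0129.

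Replicate numbers did not pair the libraries: of 60 same-numbered pairs, 4 had a correlation over 0.1 (from -0.130 to 0.160), and 13 of 120 best matches shared a number. With the replicate block, 656, 314, 278, 507 and 265 transcripts were called, and 0 and 1 member tests, and no member call changed.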
